A study of Mus musculus with 19 samples.

Results

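The cytosolic ribosomal proteins are the protein parts of the small (40S) and large (60S) subunits of the ribosome that works outside mitochondria. Members were the rows of a liver expression table whose gene name has the form of a mouse ribosomal protein symbol, that is Rps or Rpl with a number and an optional closing letter or digit, the acidic proteins Rplp0, Rplp1 and Rplp2, and Rpsa. Names marked as pseudogenes and the S6 kinases were left out. The pattern found 88 of 52110 named entries, of which 34 were 40S members, 44 were 60S members, 3 were P stalk members and 7 were paralogs with a name of their own. Of these, 84 reached a mean of 1 FPKM over the samples and were tested. The 4 that did not were Rpl3l, Rpl10l, Rpl39l and Rps12l1. In the GENCODE annotation 5 members were processed copies rather than intron-containing genes (Rps3a2, Rps3a3, Rps12l1, Rpl6l and Rps4l), which left 77 single-copy members outside the paralogs among those tested.

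A ribosome needs 1 copy of nearly every ribosomal protein, so the genes of this family are usually transcribed at high and similar rates, and unassembled protein is degraded. Many of their mRNAs start with a run of pyrimidines, the 5′ terminal oligopyrimidine or TOP motif, through which mTORC1 and the RNA-binding protein LARP1 set how much of the mRNA is translated. The liver makes secreted plasma proteins in bulk and is rich in ribosomes, and its ribosome content follows feeding and amino acid supply.

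RNA from the liver of wild-type mice was sequenced in 19 samples of 4 groups. Mice ate normal chow (NC) or CDAHFD, a high-fat diet without choline whose amino acids are defined and which is used to produce steatohepatitis. On either diet they underwent remote limb ischemic conditioning (RIC), in which blood flow to a limb is stopped and restored, or its sham. NC sham, NC RIC and CDAHFD sham had 5 samples each, and CDAHFD RIC had 4. All were labelled wild type, and the sources used here give no strain, sex, age, length of feeding or number of RIC sessions. Nothing in the labels says whether a replicate is its own mouse, and the p-values below take the spread between samples, technical or not, as the error. Levels are in FPKM (fragments per kilobase of gene, relative to all fragments of the library), given as mean ± SD. Differences are between group means of log2(FPKM + 1) ± SE, from limma over all 10577 tested genes. A gene passed at a Benjamini-Hochberg adjusted p under 0.05.

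The depth was estimated from the smallest steps of the values at 15900000 to 26400000 reads a sample. By that estimate a sample had about 237 reads for Rps28, the least covered of the 77 tested single-copy members. The median over those 77 was 1738, and the paralogs and processed copies were left out of this estimate. Defining hepatocyte genes were present in every sample, with summed levels of 45356 to 55839 FPKM in NC sham and 35163 to 40665 in CDAHFD sham. All FPKM of the named entries summed to 418101 to 511333 in a sample. Within CDAHFD sham, samples 2 and 5 stood apart from the other 3, as they did for this family.

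A TOP-like sequence lay at the start site of many members, and 5 members that the results turn on are shown with the bases around their start. RefSeq start sites of build GRCm38.p6 were available for 63 members. Within 10 bases of the start, 34 of these (54.0%) had a run of at least 6 pyrimidines (C or T) that began with C, on the strand of the gene. Among all 27025 genes with a start site the share was 21.9%. The lines below give 10 bases before the start and 20 from it, 5′ to 3′, with that run in capitals where there is one. Rps12 (chr10:23787190-23787219, minus strand) and Rpl38 (chr11:114668570-114668599, plus strand) had the largest differences with the diet. Rps6 (chr4:86857348-86857377, minus strand) is a familiar TOP mRNA, Rpl22 (chr4:152325716-152325745, plus strand) had one of the smallest diet differences, and Rpl22l1 (chr3:28805498-28805527, plus strand) is its paralog.
Rps12: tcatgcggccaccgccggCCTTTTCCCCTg
Rpl38: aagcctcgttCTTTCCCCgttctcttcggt
Rps6: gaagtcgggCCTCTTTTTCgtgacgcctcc
Rpl22: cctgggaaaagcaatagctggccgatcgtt
Rpl22l1: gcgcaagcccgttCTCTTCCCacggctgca
A second RefSeq start of Rpl22 also lacked such a run. In windows from 250 bases before to 50 after the start, on both strands, the motif CCGGAAG was found in 41.3% of the members with a start site and 9.93% of all genes. The shares were 9.52% and 8.09% for CACGTG, and 9.52% and 3.19% for AAGATGGC. A match is a description of letters only. With the diet in sham mice the median difference was 0.82 in the 33 tested members with a run and 0.79 in the 27 without one.

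The family as a whole was higher on CDAHFD and lower in CDAHFD RIC than in CDAHFD sham. The FPKM of the members summed on chow to 7877 ± 325 in sham and 7167 ± 604 in RIC mice, and on CDAHFD to 14027 ± 1772 in sham and 11522 ± 1073 in RIC mice. All 9 CDAHFD samples lay above all 10 NC samples, since the lowest CDAHFD value was 10635 and the highest NC value 8263. The CDAHFD sham samples ranged from 11573 to 15697 and overlapped the CDAHFD RIC range of 10635 to 12969 through samples 2 and 5. As a share of all FPKM the family held on chow 1.61% ± 0.0732 in sham and 1.43% ± 0.123 in RIC mice, and on CDAHFD 2.97% ± 0.248 and 2.65% ± 0.265. By this share CDAHFD RIC was at 0.891 of CDAHFD sham, against 0.821 by the sum. In bulk tissue, fewer cells of a type and less RNA per cell cannot be told apart. The 60S and P stalk members together summed on chow to 1.53 ± 0.0359 times the 40S sum in sham and 1.49 ± 0.0215 times in RIC mice. On CDAHFD the ratios were 1.59 ± 0.0241 and 1.58 ± 0.0345.

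**Figure D1:**
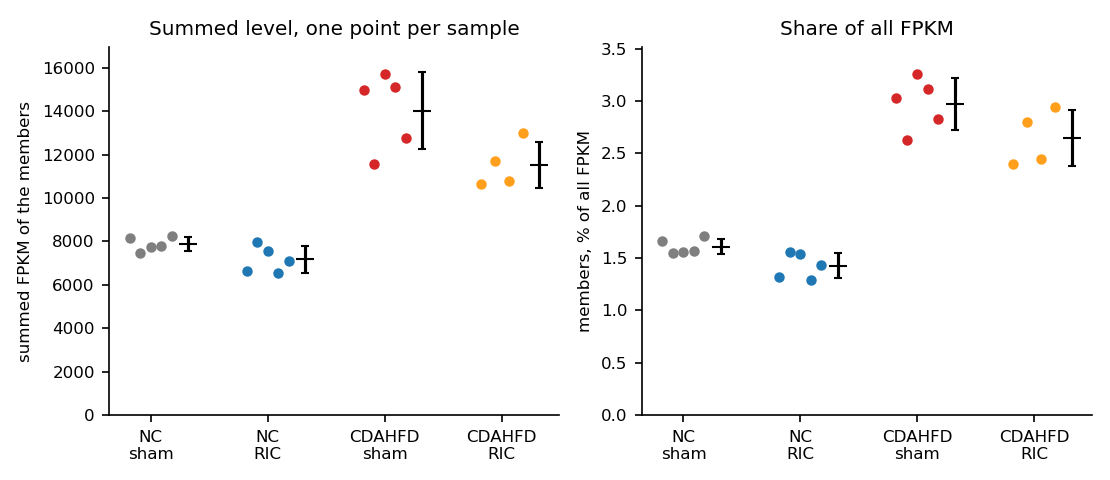
Summed FPKM of the 88 members (left) and their share of all FPKM in percent (right), one point per sample in each of the 4 groups, with the group mean and SD as a bar beside the points. All CDAHFD samples lie above all NC samples, and 2 of the 5 CDAHFD sham samples lie within the CDAHFD RIC range.

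CDAHFD sham against NC sham asks what the diet does to the family in the absence of conditioning. All 84 tested members rose, with differences of 0.31 to 1.53 and a median of 0.83. Over all tested genes 63.9% rose, 10.3% fell and the median difference was 0.45. The median of the members was thus 0.38 above that of all genes, and 76 of 84 members exceeded it. In 76 members the lowest CDAHFD sham sample was above the highest NC sham sample, as it was for 52.4% of all tested genes, while 6.91% did not overlap in the opposite direction. The 8 members whose groups overlapped were Rpl7l1, Rpl10, Rpl11, Rpl22, Rpl36a, Rps3a3, Rps4l and Rps10.

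The size of the rise, and for some members its direction, depended on the scale. Of the calls over all genes 86.1% were rises, a share that was 43.9% with median-ratio scaling, 47.6% with quantile normalization and 48.1% with a length trend removed. With each sample scaled by the median ratio of its genes, the median of all genes moved to -0.05, and 31 members rose and 6 fell with a median of 0.17. With quantile normalization the median of all genes was -0.04, and 79 members rose and none fell with a median of 0.66. In a further alternative, added after the data had been seen, the trend on transcript length among other protein-coding genes was subtracted from every sample. This also centred each sample, so that the median of all genes was -0.03, and 48 members rose and 2 fell with a median of 0.25. Of all 10577 tested genes 2849 rose and 3636 fell with median-ratio scaling. The counts were 3116 and 3428 with quantile normalization, and 3061 and 3307 with the length trend removed. The distance between the median of the members and that of all genes was 0.38 as deposited, 0.32 with values scaled to a common sum, 0.69 with quantile normalization, 0.23 with median-ratio scaling and 0.28 with the length trend removed. Ribosomal protein mRNAs are short, with a median main transcript of 886 bases in the single-copy members and 2810 in other protein-coding genes. Other protein-coding genes of up to 600 bases had a median diet difference of 0.62, and those over 7000 bases 0.21. The part of this length trend in the rise of the family was not tested.

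Among 40S members all 33 tested rose on the diet, with a median of 0.81. Rps12, a protein of the head of the small subunit that takes part in cell competition in Drosophila, rose most. It measured 28.1, 29.2, 31.8, 33.4 and 35.3 FPKM in NC sham and 65.7, 74.9, 109, 111 and 115 FPKM in CDAHFD sham. The groups did not overlap, and the 2 lower CDAHFD samples were again samples 2 and 5. The means were 31.6 ± 2.96 and 95.1 ± 23 FPKM, 3.01-fold, with a difference of 1.53 ± 0.15 and an adjusted p of 2.8e-08. The highest 40S members by level were Rps3a1 (mean 329 FPKM in NC sham), Rps15 (257 FPKM) and Rps4x (159 FPKM). Rps4x is X-linked, and its rise turned to a difference of -0.11 with median-ratio scaling and -0.04 with the length trend removed. The lowest of those tested was the processed copy Rps3a3, with 6.68 ± 1.14 FPKM in NC sham and 8.51 ± 1.11 in CDAHFD sham. Its difference of 0.31 ± 0.12 was lost without NC sham 1 or 2 or CDAHFD sham 4 or 5, and became -0.27 with median-ratio scaling, -0.18 with quantile normalization and -0.28 with the length trend removed. Rps6, the substrate of the S6 kinases, went from 145 ± 5.12 to 254 ± 26.1 FPKM, a difference of 0.80 ± 0.09 that was close to the family median. Rpsa, also known as a laminin receptor precursor, had a difference of 0.79 ± 0.09. Rps25, needed for initiation at some viral internal entry sites, had 0.94 ± 0.16. With median-ratio scaling these were 0.14 for Rps6, 0.13 for Rpsa and 0.29 for Rps25, and none of the 3 passed.

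Among 60S members all 44 tested rose on the diet, with a median of 0.83. Rpl38, which in mice is needed for translation of a subset of Hox mRNAs and for a normal skeleton, measured 96.9, 102, 104, 105 and 108 FPKM in NC sham. In CDAHFD sham it measured 186, 220, 291, 297 and 309 FPKM. Every CDAHFD sample was above every NC sample, and the difference was 1.30 ± 0.13 (2.52-fold, limma adjusted p = 3e-08). Rpl32 followed with 1.24 ± 0.11 and Rpl21 with 1.16 ± 0.11. The highest 60S members by level were Rpl4 (294 FPKM in NC sham), Rpl36 (293 FPKM) and Rpl23a (219 FPKM). Rpl36 rose by 0.83 ± 0.13, which did not pass with median-ratio scaling (0.17), and Rpl4 by 0.40 ± 0.07, which became -0.26 with median-ratio scaling and -0.16 with the length trend removed. The lowest were the processed copy Rpl6l, with 18.998 ± 1.67 FPKM in NC sham and 34.4 ± 5.79 in CDAHFD sham, and Rpl18, with 21.4 ± 1.62 and 38.2 ± 2.75. Rpl5 and Rpl11, which carry the 5S rRNA into the subunit and bind the p53 regulator MDM2 when assembly fails, rose by 0.44 ± 0.08 and 0.54 ± 0.14, but with median-ratio scaling had differences of -0.21 and -0.11, and with the length trend removed -0.09 and -0.05. The smallest 60S differences were those of Rpl22 (0.36 ± 0.14) and Rpl10 (0.37 ± 0.09), a protein that joins the subunit late in its maturation. With median-ratio scaling both had a difference of -0.29, and with the length trend removed they had -0.17 and -0.22. The call on Rpl22, which also binds RNA outside the ribosome, was lost without NC sham 2 or 3 or CDAHFD sham 1 or 3.

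The P stalk is the flexible arm of the large subunit that recruits elongation factors. Rplp1 had the highest level of any member, with 427, 438, 483, 490 and 500 FPKM in NC sham and 732, 787, 921, 994 and 1008 FPKM in CDAHFD sham. The groups were clear of each other, with a difference of 0.92 ± 0.09. Rplp0 went from 173 ± 8.64 to 328 ± 16.5 FPKM (0.92 ± 0.08), and Rplp2 from 23.3 ± 2.31 to 52.1 ± 5.51 FPKM (1.13 ± 0.10). All 3 passed.

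**Figure D2:**
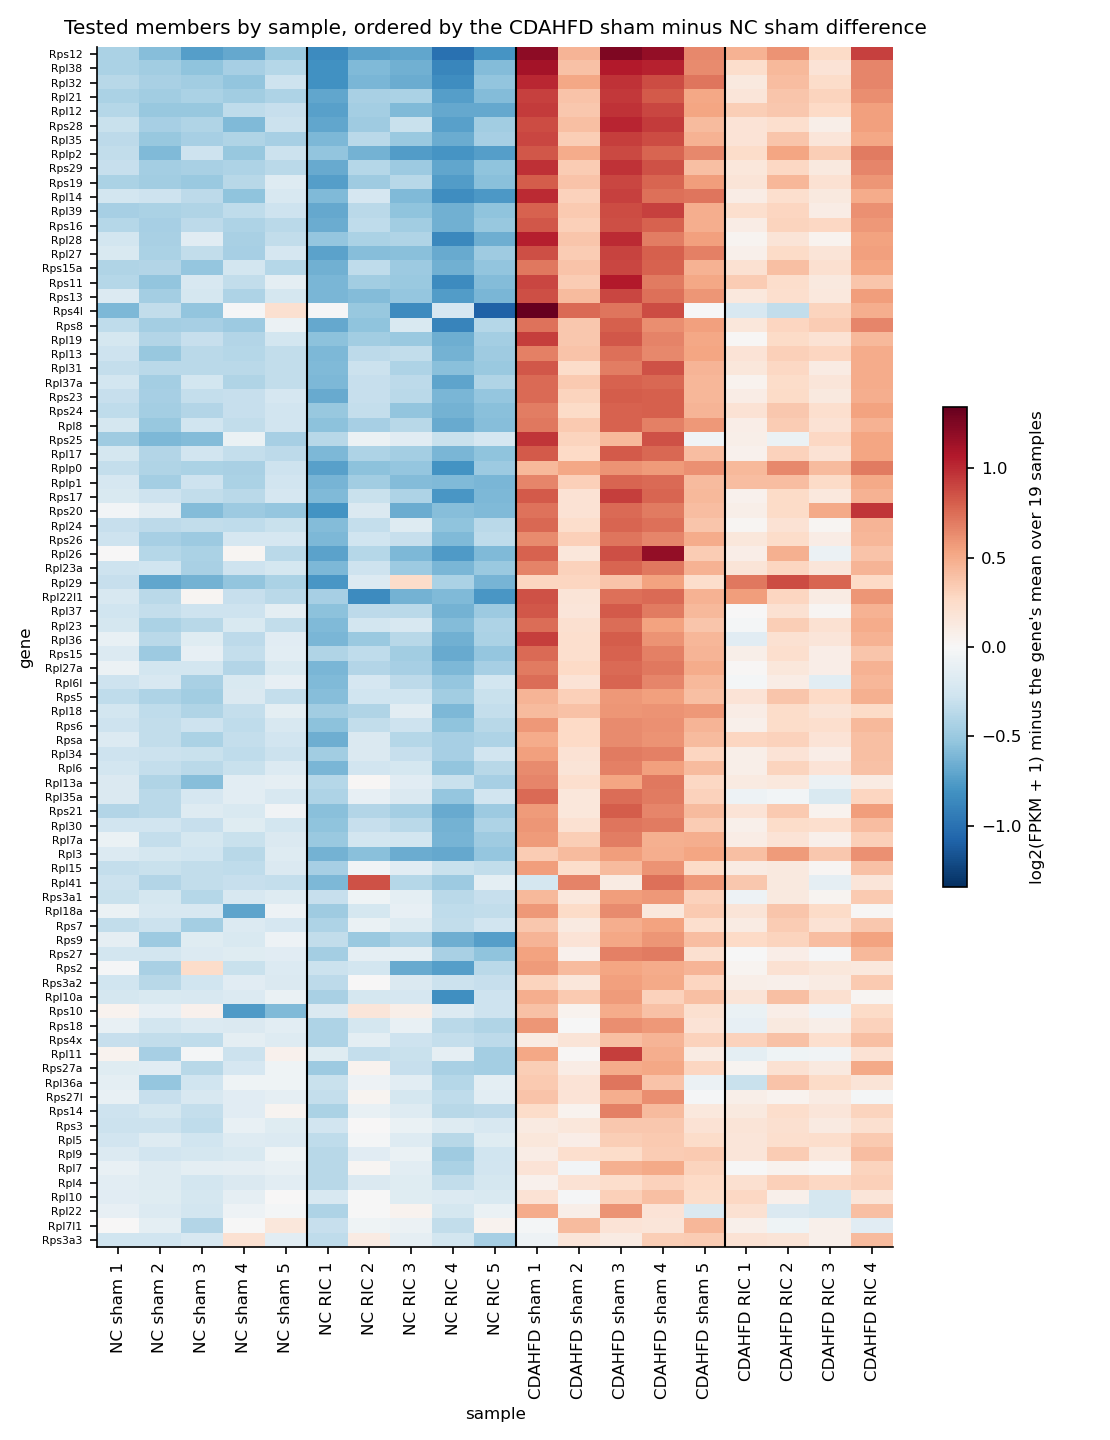
Level of the 84 tested members (rows, ordered by the diet difference in sham mice) in the 19 samples (columns), as log2(FPKM + 1) minus the mean of the gene over all samples; red is above and blue below that mean. Members are red in the CDAHFD samples and blue in most NC samples, the CDAHFD sham samples 2 and 5 are paler than the other 3, and Rpl41 stands out in NC RIC 2.

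Members did not all rise by the same amount. When the median of the tested members other than paralogs in the same sample was subtracted from every gene, 25 members passed above the family and 14 below it in the diet comparison. Of all tested genes 14.6% passed above and 49.9% below on that scale. The largest departures above were Rps12 (0.76, adjusted p = 2.9e-06), Rpl38 (0.53, adjusted p = 1.8e-05) and Rpl32 (0.47, adjusted p = 4.4e-05). The largest below were Rps3a3 (-0.46), a processed copy, the paralog Rpl7l1 (-0.46) and Rpl22 (-0.41). Rpl10 (-0.40), Rpl4 (-0.37) and Rpl5 (-0.32) were also below. With the length trend removed 26 members passed above and 15 below, and the shares of all genes in that setting are not given here. The order of levels among the members hardly moved, with a Spearman coefficient of 0.97 between NC sham and CDAHFD sham over 84 members that share their libraries. One principal component held 91.3% of the variance of the members over the samples, against 75.6% for the first component of all tested genes. After group means were removed, the first component of the members held 57.2%, and all tested genes were not measured that way.

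Markers of most other cell types rose with the diet, as the family did, while erythroid and hepatocyte markers fell or did not pass. All 10 macrophage markers rose, and their summed level went from a range of 43.6 to 60.6 FPKM in NC sham to 748 to 1078 in CDAHFD sham. All 6 stellate cell markers (17.9 to 32.02 and 106 to 202 FPKM) and all 3 tested neutrophil markers of 4 (0.206 to 0.825 and 14.3 to 37.3 FPKM) rose as well. The 3 tested cholangiocyte markers of 5 rose from 16.5 to 35.1 to a range of 143 to 479 FPKM, and 4 of 5 endothelial markers rose from 8.23 to 16.6 to a range of 15.6 to 24.5 FPKM. Of T and NK markers 1 of 6 was tested and rose, and of B and plasma cell markers 1 of 5, with summed levels of at most 10.2 and 9.28 FPKM in CDAHFD sham. Of 8 hepatocyte markers 6 fell and none rose, and 4 of the 5 tested erythroid markers of 6 fell. The part of these cells in the rise of the family was not tested.

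CDAHFD RIC against CDAHFD sham asks what conditioning does to the family on the diet. Of the 84 tested members 41 fell and none rose. The median difference was -0.30, with a range from -0.68 to 0.31. Of all tested genes 18.6% fell and 8.72% rose, with a median of -0.08, and 74 of the members lay below that median. In 4 members, Rpl7a, Rpl13a, Rpl18 and Rps2, every CDAHFD RIC sample was below every CDAHFD sham sample, which is 4.76% of the members against 13.1% of all tested genes. The reverse held for no member and 5.26% of all tested genes. By list 14 of 33 40S members and 27 of 44 60S members fell, and no P stalk member and no tested paralog passed.

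The number of falls depended on scaling and on transcript length. Of the calls over all genes 31.9% were rises, a share of 56.8% with every sample scaled to a common sum, 50.5% with quantile normalization, 58.5% with median-ratio scaling and 55.8% with the length trend removed. With every sample scaled to a common sum of FPKM 10 members fell, with median-ratio scaling 8, and in a fit of the 2 groups alone 10. Of all 10577 tested genes 876, 977 and 1325 fell in these settings, in that order. Other settings kept more of the falls. With quantile normalization 34 members and 1449 of all tested genes fell, with a pseudocount of 0.1 39 and 1609, and with array weights 39 and 1690. Without a filter 28 members fell, among 2163 of 29754 entries. The median of the members minus that of all genes was -0.22 as deposited, -0.20 with either scaling, -0.24 with quantile normalization and -0.08 with the length trend removed. With the length trend removed 1 member fell and 5 rose, where 1106 of all tested genes fell and 1394 rose. The median of the members was then -0.06. Leaving out CDAHFD RIC 3 left 11 falls, CDAHFD RIC 1 or CDAHFD sham 3 left 15, CDAHFD sham 1 left 18, CDAHFD sham 4 left 22 and CDAHFD RIC 2 left 26. As each of the 19 samples was left out, 2073 to 3271 genes were called in either direction. CDAHFD sham 2 and 5 were the low samples of that group for this family, so leaving them out widens the fall by construction. Without them 59 members and 1967 of all tested genes fell. Other protein-coding genes of up to 600 bases had a median difference of -0.35 in this comparison and those over 7000 bases 0.08. Among the 77 single-copy members, which share their libraries, the Spearman coefficient between length and this difference was 0.35. Single-copy members of 900 to 1200 bases had a median of -0.35 and other genes of that length -0.22. The part of the length trend in the fall was not tested. Of the markers of other cells, 3 of 6 stellate, 1 of 3 tested neutrophil and 1 B and plasma marker fell with RIC on CDAHFD, 1 of 10 macrophage markers rose, and no T and NK, endothelial, cholangiocyte or erythroid marker passed. The summed stellate level was 85.7 to 142 FPKM in CDAHFD RIC and 106 to 202 in CDAHFD sham, and the macrophage sum was 511 to 1131 and 748 to 1078 FPKM. Of 8 hepatocyte markers 1 rose and 1 fell. The part of these cells in the fall was not tested either.

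**Figure D3:**
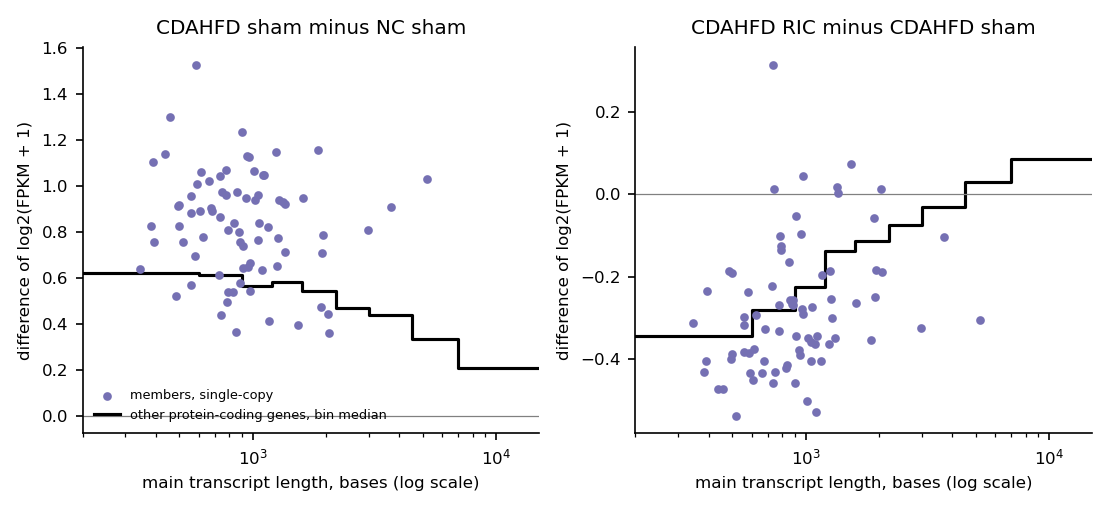
Difference of log2(FPKM + 1) against main transcript length on a log axis, for the diet in sham mice (left) and RIC on CDAHFD (right); points are the 77 tested single-copy members and the step line is the median of other protein-coding genes in bins of length. In the left panel most members lie above the line, and in the right panel they lie around and below a line that climbs from -0.35 to 0.08.

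The largest difference with RIC on CDAHFD was that of the processed copy Rps4l, at -0.68 ± 0.26, which did not pass (adjusted p = 0.057). Rpl35a, a 60S protein whose gene is mutated in some human Diamond-Blackfan anemia, measured 46.6, 52.3, 68.5, 71.2 and 71.9 FPKM in CDAHFD sham. It measured 36.4, 39.98, 40.9 and 51.4 FPKM in CDAHFD RIC. The groups overlapped through CDAHFD RIC 4 and CDAHFD sham 2, and the difference was -0.54 ± 0.13 (limma adjusted p = 0.0062). Rpl28 (-0.53 ± 0.14) and Rpl14 (-0.50 ± 0.14) also fell. With the length trend removed none of these 3 passed, with differences of -0.21 for Rpl35a, -0.32 for Rpl28 and -0.27 for Rpl14. Rpl38 fell by 0.47 on the log2 scale from 261 ± 54.4 to 186 ± 28.5 FPKM, whereas Rps12, at 95.1 ± 23 and 71.7 ± 14.4 FPKM, did not pass (-0.39 ± 0.16, adjusted p = 0.073). Without CDAHFD RIC 3 the fall of Rpl38 did not pass, nor did it with median-ratio scaling (-0.36, adjusted p = 0.057), in a fit of the 2 groups alone or with the length trend removed (-0.12). Rps6 fell by 0.27 on that scale, a call lost without any 1 of 6 CDAHFD samples, and Rpl11 by 0.42, a call lost without any 1 of 15 samples. Rpl39, which lines the exit tunnel, fell from 129 ± 21.7 to 99.1 ± 15.8 FPKM (-0.38 ± 0.12), also a call lost without any 1 of 6 CDAHFD samples. Among all 29 alternatives the call on Rps6 passed in 16 and that on Rpl39 in 19, and with the length trend removed their differences were -0.02 and -0.07. Rpl11 had -0.16 there.

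A few members did not share in the lower level. Rpl29, a 60S protein that also binds heparin, measured 99.7, 103, 104, 111 and 124 FPKM in CDAHFD sham and 102, 139, 146 and 157 FPKM in CDAHFD RIC. Apart from CDAHFD RIC 4 the RIC samples were above all sham samples, and the difference of 0.31 ± 0.17 did not pass. Rpl4 (0.07 ± 0.07), Rps4x (0.04 ± 0.09), Rps3a3 (0.04 ± 0.12), Rpl3 (0.02 ± 0.07), Rpl5 (0.01 ± 0.08) and Rplp0 (0.00 ± 0.08) were near 0. Relative to the median of the family 4 members passed above it, namely Rpl29 (0.55, adjusted p = 0.023), Rpl4 (0.31, adjusted p = 0.023), Rps4x (0.28, adjusted p = 0.027) and Rpl5 (0.25, adjusted p = 0.033). One passed below it, Rpl35a (-0.30, adjusted p = 0.019). Of all tested genes 17.2% passed above and 3.1% below. These counts moved with single samples, from 0 to 9 above and from 0 to 7 below as each of the 19 samples was left out, and were 9 and 16 without CDAHFD sham 2 and 5.

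**Figure D4:**
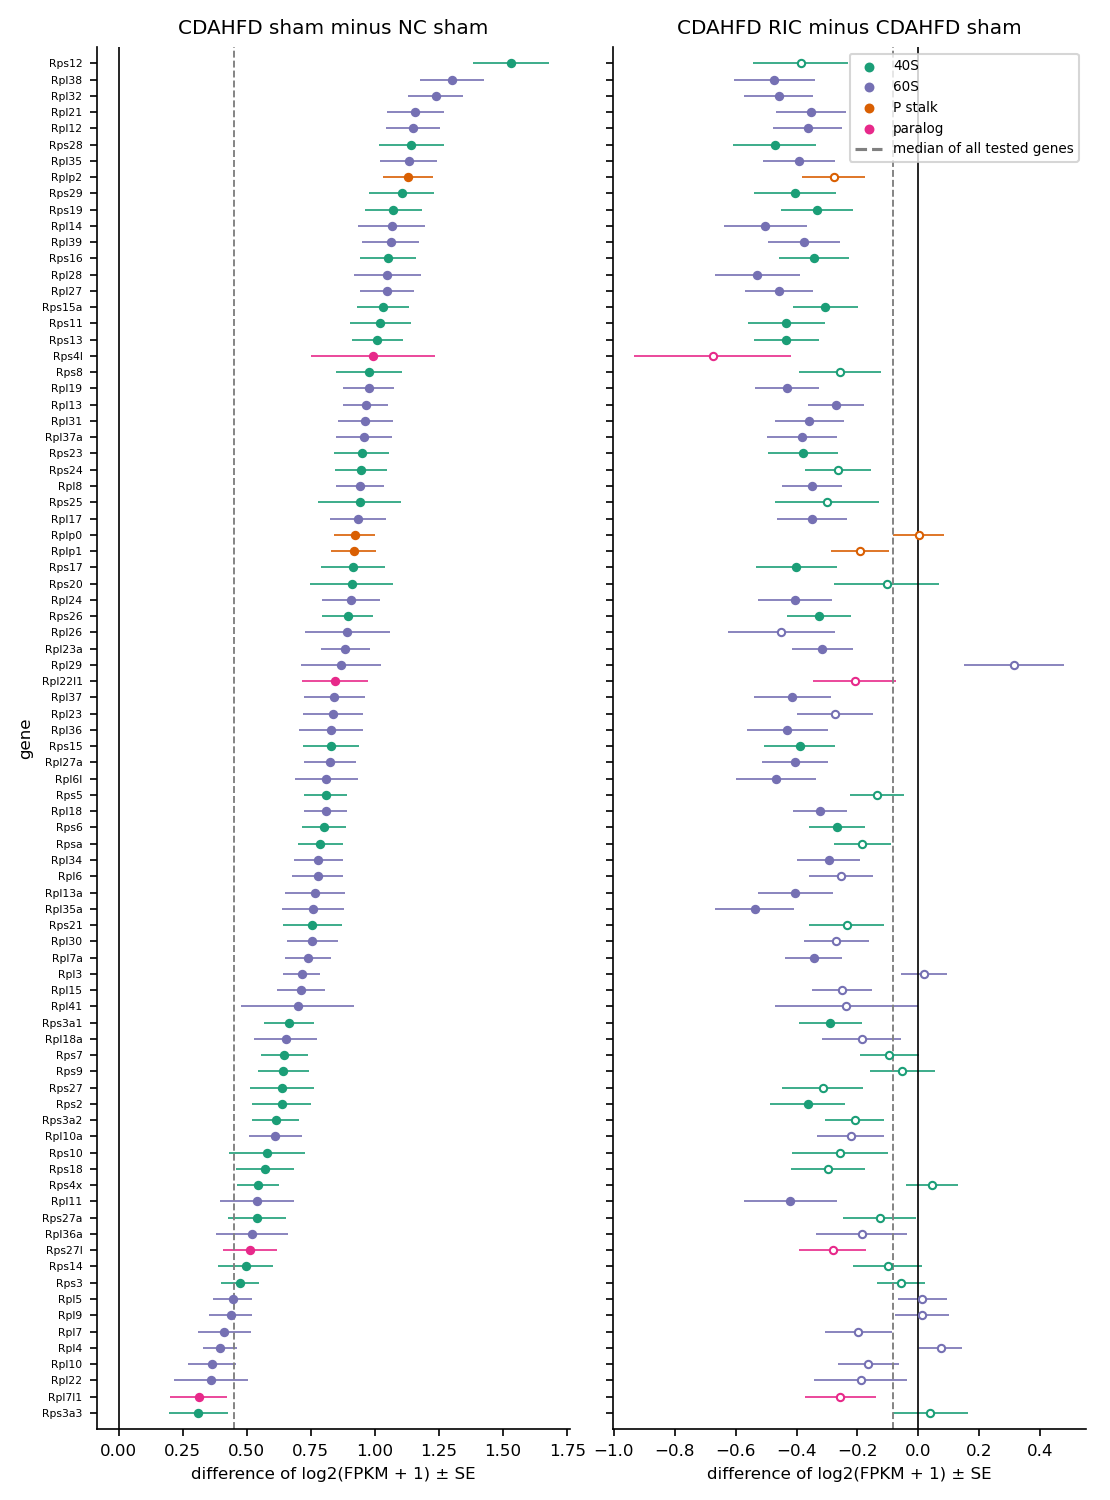
Difference of log2(FPKM + 1) ± SE of each of the 84 tested members for the diet in sham mice (left) and for RIC on CDAHFD (right), in the same order; colours give the list, filled points passed an adjusted p of 0.05, and the dashed line is the median of all tested genes. Both panels use the same CDAHFD sham samples, so the panels are not independent. All points are filled on the left and 41 on the right.

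NC RIC against NC sham asks the same of conditioning on chow. One of 84 members fell and none rose. The median difference was -0.14 against -0.06 for all tested genes, of which 0.86% fell and 0.321% rose. At an unadjusted p under 0.05 there were 21 of the 84 members and 16.5% of all tested genes, and 65 of the members lay below the median of all genes. In 14 members every NC RIC sample was below every NC sham sample, as in 3.75% of all tested genes, and in none was every one above, as in 0.993% of them. The 14 included all but one of the P stalk proteins (Rplp0 and Rplp1), Rpl38 and Rpl3. The summed hepatocyte markers were higher in NC RIC, at 58822 to 70326 FPKM against 45356 to 55839 in NC sham. The median difference of the 8 markers was however -0.23, so the sum does not stand for the typical marker. Of the 8 markers 1 rose (Alb, limma adjusted p = 0.0496) and 7 did not pass, while no marker of another cell type passed. The part of hepatocytes in the lower levels of the family was not tested. The member that passed was Rpl3, a protein next to the peptidyl transferase centre. It measured 61.3, 65.8, 67.5, 70.0 and 70.4 FPKM in NC sham and 49.0, 49.9, 50.7, 53.6 and 55.3 FPKM in NC RIC. The groups were clear of each other (-0.37 ± 0.07, limma adjusted p = 0.018). Rpl22l1 had a larger difference that did not pass (-0.42 ± 0.13, adjusted p = 0.12), as did Rpl26 (-0.38 ± 0.17). Rps2 had -0.32 ± 0.12, and the largest positive differences were those of Rps25 (0.21 ± 0.16), Rps10 (0.19 ± 0.15), Rpl41 (0.18 ± 0.22) and Rpl29 (0.17 ± 0.16). No member passed above or below the family here, where 0.208% and 0.0756% of all tested genes did, and 13 of the 84 members and 9.37% of all tested genes had an unadjusted p under 0.05 on that scale.

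Rpl3 was also the member whose response to RIC differed between diets. It measured 101, 107, 112, 115 and 117 FPKM in CDAHFD sham and 103, 105, 119 and 122 FPKM in CDAHFD RIC, ranges that overlap. The RIC difference on CDAHFD minus that on NC was 0.38 (adjusted p = 0.032), the only member call of the interaction, where 3.59% of all tested genes were higher and 3.13% lower. At an unadjusted p under 0.05 there were 7 of the 84 members, a smaller share than the 23.1% of all tested genes. They included Rplp0 (0.25), Rpl35a (-0.46) and Rps25 (-0.51). Relative to the family Rpl3 was also the 1 member that passed (0.52, adjusted p = 0.032), above it, as 2.32% of all tested genes were, with 0.652% below. The call on Rpl3 was lost when any of 7 single samples was left out, which were NC sham 2 and 5, NC RIC 1 and 3, CDAHFD sham 1, and CDAHFD RIC 2 and 4. The fall on chow was lost without NC sham 1, 2 or 5 or NC RIC 2, and with quantile normalization (-0.26). Without CDAHFD sham 2 and 5 together, 12 members and 506 of all tested genes had a lower interaction. These samples were low for the family, so leaving them out lowers its interaction by construction.

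**Figure D5:**
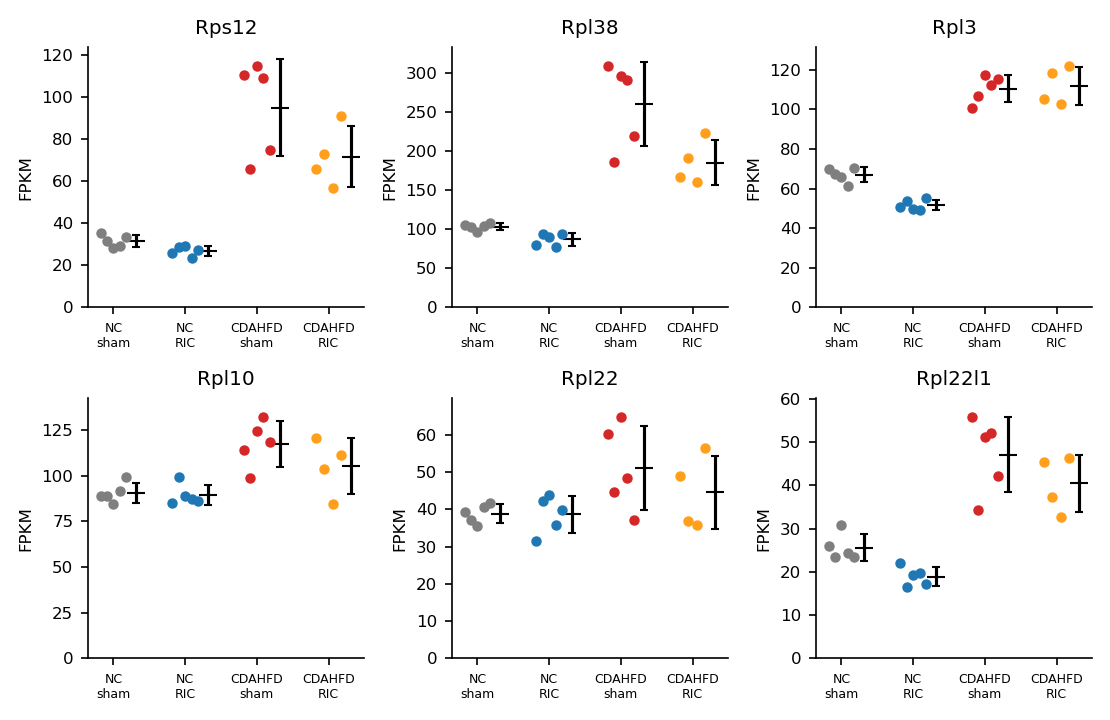
FPKM of 6 members in each sample of the 4 groups, with the group mean and SD beside the points. Rps12 and Rpl38 have the widest distance between diets, Rpl3 is lower in NC RIC than in NC sham and overlaps between the CDAHFD groups, and Rpl10 and Rpl22 differ least between diets.

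CDAHFD RIC against NC RIC gives the diet difference in conditioned mice. Of the 84 members 77 rose and none fell, with a median of 0.68, where 63.6% of all tested genes rose and 6.68% fell with a median of 0.42. In 68 members the RIC mice on CDAHFD were clear above those on chow, against 53.3% of all tested genes, and in none clear below, against 4.63%. The largest rises were those of Rps12 (1.37 ± 0.16), Rplp0 (1.17 ± 0.08), Rplp2 (1.14 ± 0.10) and Rpl3 (1.10 ± 0.07). Rpl3 went from 51.7 ± 2.65 to 112 ± 9.59 FPKM, 2.17-fold. The 7 that did not pass were Rpl10 (0.22 ± 0.10), Rpl11 (0.26 ± 0.15), Rpl22 (0.18 ± 0.15), Rpl36a (0.33 ± 0.15), Rpl41 (0.28 ± 0.24), Rpl7l1 (0.13 ± 0.12) and Rps10 (0.14 ± 0.16). For all of these the difference was below 0 with median-ratio scaling and with the length trend removed. Relative to the family 23 members were above and 14 below, against 14% and 34.3% of all tested genes, with Rps12 (0.74), Rplp0 (0.54) and Rplp2 (0.51) at the upper end and Rpl7l1 (-0.50) at the lower. With median-ratio scaling 14 members rose and 9 fell, and with the length trend removed 48 rose and 1 fell. Of all tested genes 2436 rose and 2972 fell with median-ratio scaling, and 2643 and 2714 with the length trend removed.

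Some ribosomal proteins have a paralog, and some of these paralogs can take their place in the subunit. Listed were 8 pairs of a gene and a paralog or copy of it, among them the processed copy Rps4l with Rps4x. Whether each can replace its partner was not tested. In 5 of the pairs both partners reached a mean of 0.5 FPKM. The paralog's share of the pair's FPKM was compared in each of the 4 comparisons with two-sided exact permutation tests, 20 in all, and none passed after Benjamini-Hochberg adjustment. The smallest p such a test can give is 0.00794 with 5 samples a group and 0.0159 with 4 in one. With 20 tests adjusted together, a single test at its smallest p could not pass. The lack of calls therefore does not show that the shares were equal. Rpl22l1, whose mRNA is held down by its partner Rpl22 in mice, measured 25.6 ± 3.15 FPKM in sham and 18.9 ± 2.16 in RIC mice on chow, and 47.1 ± 8.67 and 40.4 ± 6.53 on CDAHFD. Rpl22 measured 38.9 ± 2.51, 38.7 ± 5.04, 51.1 ± 11.4 and 44.6 ± 9.9 FPKM in the same order. In sham mice the share of Rpl22l1 was 39.7% ± 4.1 on chow and 48.1% ± 4.39 on CDAHFD (exact p = 0.0238, adjusted p = 0.238). It was 33.0% ± 5.25 in NC RIC and 47.8% ± 2.1 in CDAHFD RIC, with no overlap (exact p = 0.0159, adjusted p = 0.238). The sham groups overlapped, with 35.9% to 46.5% on chow and 43.5% to 53.3% on CDAHFD.

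Rps27l, a paralog of Rps27 that p53 induces, was the more abundant of its pair, with 176 ± 10.2 FPKM in NC sham against 98.7 ± 3.15 for Rps27, and its share of 61.9% to 65.8% by group mean had no adjusted p under 0.34. Rpl36al, outside the name pattern, held 56.9% to 58.9% of its pair with Rpl36a. Rpl7l1, which resembles Rpl7, held 14.1% to 15.7%, and Rps4l, a processed copy of Rps4x, 3.78% to 6.55%. Reads of near-identical copies may have been divided between them, so the levels of Rps4l, Rps3a2, Rps3a3 and Rpl6l are uncertain. Rpl3l, a paralog of Rpl3 known from muscle, was listed at 0 in 14 of 19 samples and reached at most 0.114 FPKM. Rpl39l, known from the male germ line, reached at most 0.477 FPKM, and Rpl10l, known from the testis, was listed at 0 in every sample. Rps12l1 was above 0 in 1 sample. A further 275 entries named as pseudogenes of the family, 99 of them above 1 FPKM, summed to 21.0% to 22.0% of the members' FPKM by group mean.

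Some genes of the ribosome are not caught by the name pattern. Entries outside the pattern that were compared numbered 4, 1 of them named as a pseudogene, and all 4 rose on the diet, as did 63.9% of all tested genes. None of the 4 passed under median-ratio scaling, where 2849 of all 10577 tested genes rose. With the length trend removed 1 of the 4 rose, as did 3061 of all tested genes. The 4 are Fau, whose product is cut into a ribosomal protein and a ubiquitin-like part, the 40S scaffold Rack1, Rpl36al and Rpl36a-ps1. Rpl36a-ps1 is also counted among the pseudogene entries above, and its reads may be shared with Rpl36a. Fau went from 112 ± 8.4 to 196 ± 31 FPKM (0.80). It was the 1 of the 4 that fell with RIC on CDAHFD, by 0.35 on the log2 scale, a call that passed in 6 of 29 alternatives and was lost without any 1 of 14 samples.

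Other mRNAs with a TOP start, a list of 20 translation factors and related genes, had members that passed in both directions. With the diet 17 rose and 1 fell, with a median of 0.63, where 63.9% and 10.3% of all tested genes did. With median-ratio scaling 4 rose and 8 fell, where 2849 of all 10577 tested genes rose and 3636 fell. With the length trend removed 7 rose and 6 fell, where 3061 of all tested genes rose and 3307 fell. Vim, a mesenchymal intermediate filament gene, rose most (1.64 ± 0.75 to 27.6 ± 7.8 FPKM), and the elongation factor gene Eef1b2 rose from 46.6 ± 4.1 to 87.8 ± 7.1 FPKM. The one that fell was Eif4b, an RNA helicase cofactor, from 54.4 ± 4 to 43.3 ± 1.9 FPKM. With RIC on CDAHFD 8 fell, among them Eef1g (-0.43) and Eef1d (-0.46), and 2 rose, where 18.6% and 8.72% of all tested genes did. The falls numbered 3 with a common sum, median-ratio scaling or the length trend removed and 4 in a fit of the 2 groups alone. Over all tested genes 876, 977, 1106 and 1325 fell in these settings, in that order. The rises numbered 4 with median-ratio scaling or the length trend removed, where 1378 and 1394 of all tested genes rose. The 2 that rose in the main fit were Eif4b, to 59 ± 5.2 FPKM (0.44, limma adjusted p = 0.00146), and Eef2, which moves the ribosome along the mRNA, from 235 ± 20 to 305 ± 10 FPKM (0.38, limma adjusted p = 0.0109). The rise of Eef2 did not pass without CDAHFD sham 2 and 5 (0.29, adjusted p = 0.053).

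Ribosome biogenesis genes, a list of 40, had 36 that rose with the diet and none that fell, with a median of 0.68. Of all tested genes 63.9% rose and 10.3% fell. With median-ratio scaling 16 of the list rose and 6 fell, where 2849 of all 10577 tested genes rose and 3636 fell. With the length trend removed 22 of the list rose and 5 fell, where 3061 of all tested genes rose and 3307 fell. Eif6, which keeps new 60S subunits from joining early, went from 8.46 ± 0.85 to 27 ± 5 FPKM (1.55), and the rRNA methyltransferase gene Nop2 from 3.72 ± 0.45 to 10.4 ± 1.8 FPKM (1.26). With RIC on CDAHFD 12 fell and 1 rose, where 18.6% and 8.72% of all tested genes did. The falls numbered 6 with a common sum or median-ratio scaling and 7 with quantile normalization or the length trend removed. Over all tested genes 876, 977, 1449 and 1106 fell in these settings, in that order. Nop2 fell to 6.09 ± 0.4 FPKM (-0.67), Wdr12, of the PeBoW complex of 60S assembly, fell from 2.86 ± 0.43 to 1.7 ± 0.17 FPKM (-0.51), and Nmd3, the 60S export adaptor, rose from 3.21 ± 0.51 to 4.36 ± 0.77 FPKM (0.35), a call lost without CDAHFD RIC 3, in a fit of the 2 groups alone and with the length trend removed. On chow no gene of either list passed with RIC.

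Of 19 genes that control growth and the translation of ribosomal protein mRNAs, 11 rose with the diet and 1 fell. Of all tested genes 63.9% rose and 10.3% fell. The median of the 19 genes was 0.31, below that of all genes. With median-ratio scaling 5 rose and 9 fell, where 2849 of all 10577 tested genes rose and 3636 fell. With the length trend removed 3 rose and 8 fell, where 3061 of all tested genes rose and 3307 fell. Mtor rose from 2.56 ± 0.19 to 5.29 ± 0.68 FPKM and Eif4ebp1, an inhibitor of cap-dependent initiation, from 7.81 ± 1.3 to 18.5 ± 0.75 FPKM. The one that fell was Deptor, an inhibitor within the mTOR complexes, from 16.7 ± 1.6 to 10.9 ± 1.4 FPKM. With RIC on CDAHFD 4 rose and 1 fell, where 8.72% and 18.6% of all tested genes did. Deptor rose to 19.1 ± 2.2 FPKM (0.77, adjusted p = 6.26e-05), as did Mxd4 (0.54), an antagonist of Myc, Mxi1 (0.59) and Eif4ebp2 (0.30), and Rheb, the activator of mTORC1, fell from 11.4 ± 0.65 to 9.2 ± 0.7 FPKM (-0.28). The rise of Mxi1 was lost without any 1 of 5 CDAHFD samples and that of Eif4ebp2 without any 1 of 7. Neither passed without a filter or in a fit of the 2 groups alone, and Eif4ebp2 also did not pass with a replicate block, without CDAHFD sham 2 and 5 or with the length trend removed. The fall of Rheb did not pass with either scaling or with the length trend removed. With RIC on chow none of the 19 passed.

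Introns of ribosomal protein genes often hold small nucleolar RNAs, which guide modification of rRNA. The table listed 58 inside 30 members, of which 21 reached a mean of 1 FPKM. The most abundant of the named ones, Snord72 inside Rpl37, averaged 2.44 FPKM over the samples. At these lengths such values rest on very few reads and the reads may come from introns of the host, so they were not compared.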

How the data were processed

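Liver RNA of 19 samples in 4 groups was analysed from 1 gene table. Per the file headers, the authors deposited FPKM values for each gene and sample. The submitters' processing notes name FastQC 0.11.9, Trimmomatic 0.38, HISAT2 2.2.1, HTSeq 0.13.5, R 3.4.1, DESeq2 1.18.1 and the build mm10, with no role or order. The program that gave FPKM, its annotation and its use of strand are not given in the sources used here. Of 55335 entries, 3225 without a gene name were left out (0.123% to 0.204% of FPKM in a sample), which left 52110. FPKM is relative to the depth of each library, so it shows no change in total RNA.

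Entries with a mean of at least 1 FPKM over the samples, 10577 in all, were tested on log2(FPKM + 1) in R 4.3.3 with limma 3.58.1, using eBayes with a trend and 15 residual degrees of freedom. Tests were two-sided, all samples shared 1 estimate of the spread, p-values were Benjamini-Hochberg adjusted over all tested entries, and a call needed an adjusted p under 0.05. Differences on this scale understate changes of low genes. Departures from the family came from the same fit after the median of the tested members other than paralogs was subtracted in each sample. For shares of paralogs the tests were exact permutations, two-sided. Depth was estimated from the smallest steps between values, and reads behind a level are therefore estimates. Transcript lengths were taken from GENCODE, and promoter letters from RefSeq.

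The members and all gene lists were chosen with earlier results of these data known. Genes were named by a rule: the 3 highest and 2 lowest members by level in each subunit, the P stalk, paralogs and their partners, the 4 largest differences each way in a comparison, the 3 largest departures each way, calls of RIC on chow and of the interaction, 12 fixed members, and up to 3 genes of each other list by p. Members outside this rule that are printed (Rpl7a or Rpl13a in short lists, for example) were named after their values were seen. One gene of the lists is not reported here.

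Alternatives were a pseudocount of 0.1, no filter, values scaled to a common sum, median-ratio scaling, quantile normalization, a fit of only the groups compared, array weights, the replicate number as a block, leaving out each sample, and leaving out CDAHFD sham 2 and 5. Those samples were the low ones of their group for this family. In an alternative added after the data had been seen, a lowess trend (span 0.3) of the values on log2 transcript length, fitted in each sample on protein-coding genes that are no members, was subtracted. The scripts were tested on simulated data. Counting and figures used Python 3.11.15, numpy 2.4.6, scipy 1.17.1, pandas 2.3.3 and matplotlib 3.10.9.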

Additional observations from a re-analysis of the deposited data

Results flagged for a closer look

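In 6 members a sample was set apart from the others of its group by the gap to its nearest neighbour. Chance flags about 1 in 20 groups, and 6 of 160 groups over 40 members were set apart here. In NC RIC 2, Rpl41 measured 174 FPKM where the next highest sample had 87.4, Rpl10 measured 99.0 FPKM (next 88.9) and Rplp1 measured 425 FPKM (next 393). In NC sham 4, Rps25 measured 59.6 FPKM (next 46.1) and Rps3a3 measured 8.67 FPKM (next 6.61). In NC sham 3, Rpl23a was the lowest at 198 FPKM (next 221). Without NC RIC 2 the RIC difference of Rpl41 on chow changed from 0.18 to -0.07. The RIC difference of Rpl3 on CDAHFD exceeded that on chow by 0.38 in the interaction test (limma adjusted p = 0.032).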

How the results depend on the processing

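Of 101 differences of named genes, 99 kept their direction and side of the threshold with a pseudocount of 0.1, 95 without a filter, 91 with a common sum, 89 with quantile normalization, 96 with array weights, 82 without CDAHFD sham 2 and 5, 67 with median-ratio scaling and 56 with the length trend removed. FPKM gives levels relative to each library, samples 2 and 5 of CDAHFD sham widen the spread of that group, and with 4 or 5 samples a group a difference of the size seen with RIC can fall on either side of the threshold. The causes of the changes below were not tested. Shares of all genes above or below the family are given only for the main fit.

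With median-ratio scaling 31 members rose and 6 fell with the diet in sham mice (median 0.17), 14 rose and 9 fell in RIC mice (median 0.067), and 8 fell with RIC on CDAHFD. Differences in sham mice that changed sign were those of Rpl4 (-0.26), Rpl5 (-0.21), Rpl7 (-0.24), Rpl7l1 (-0.31), Rpl10 (-0.29), Rpl11 (-0.11), Rpl22 (-0.29), Rpl36a (-0.13), Rps3a3 (-0.27), Rps4x (-0.11), Rps27 (-0.018) and Rps27l (-0.15). In RIC mice they were Rpl7l1 (-0.46), Rpl10 (-0.39), Rpl11 (-0.35), Rpl22 (-0.42), Rpl36a (-0.28), Rpl41 (-0.33) and Rps10 (-0.47). With the length trend removed 48 members rose and 2 fell with the diet in sham mice (median 0.25), and 48 rose and 1 fell in RIC mice (median 0.26). With RIC on CDAHFD 5 rose and 1 fell (median -0.062), and 3 were below the family. The interaction had 3 higher members and a median of -0.0043, where 461 of all tested genes were higher and 343 lower. Signs changed in sham mice for Rpl4 (-0.16), Rpl5 (-0.090), Rpl7 (-0.16), Rpl7l1 (-0.19), Rpl10 (-0.22), Rpl11 (-0.051), Rpl22 (-0.17), Rpl36a (-0.072), Rps3a3 (-0.28), Rps4x (-0.044) and Rps27l (-0.082). They changed in RIC mice for Rpl7l1 (-0.34), Rpl10 (-0.20), Rpl11 (-0.16), Rpl22 (-0.30), Rpl36a (-0.047), Rpl41 (-0.11) and Rps10 (-0.29), and with RIC on CDAHFD for Rpl7 (0.0056), Rpl10 (0.091), Rpl22l1 (0.11), Rpl41 (0.078), Rplp1 (0.15), Rps27 (0.073) and Rps27l (0.055).

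With quantile normalization the diet median was 0.66 in sham and 0.50 in RIC mice, where 1 member and 2854 of all tested genes fell. The interaction had 2 lower members and 447 lower genes, and RIC on chow had 0 members lower among 59 genes called. Signs changed for Rpl7l1 (-0.078) and Rps3a3 (-0.18) in sham mice and for Rpl7l1 (-0.28), Rpl22 (-0.15) and Rps10 (-0.16) in RIC mice. With a common sum 10 members fell with RIC on CDAHFD, the diet median in RIC mice was 0.89 and the interaction median -0.0076. A fit of only the groups compared gave 10 falls and 1868 genes called with RIC on CDAHFD and 46 genes called on chow, and cannot give the interaction. Without a filter 12361 genes were called with the diet and 48 with RIC on chow, 8 members were above the family with RIC on CDAHFD and 0 in the interaction. Array weights gave 2 falls and 401 genes called with RIC on chow, and -0.0047 for Rpl5 with RIC on CDAHFD. Without CDAHFD sham 2 and 5 the interaction had 12 lower members, 1266 genes called and a median of -0.32, 9 members were above and 16 below the family with RIC on CDAHFD, 4 above and 1 below in the interaction, and Rpl5 had -0.030 with RIC on CDAHFD. With 1 added to each FPKM the share of Rps4l moved by -0.134 percentage points between NC RIC and CDAHFD RIC. Without the 50 highest other entries the family held on chow 3.92% of FPKM in sham and 3.76% in RIC mice, and on CDAHFD 6.37% and 5.48%.

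With the replicate number as a block, 31 members fell with RIC on CDAHFD, against 41 in the main fit, and 79 genes were called with RIC on chow. Of all tested genes 1645 fell with RIC on CDAHFD with the block and 1964 in the main fit. Deviations of same-numbered samples correlated weakly (r of -0.174 to 0.176 over 27 pairs, median 0.0258, 6 of them over 0.1). Of 54 matches, 19 were best with their own number. Each match had 4 or 5 candidates, and a random pick among them would give a smaller share on average. The matches share samples and this excess was not tested, so a shared deviation is not excluded. The numbers were not taken as pairs in the main fit.

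As each sample was left out in turn, 11 to 56 members fell with RIC on CDAHFD, among 2073 to 3271 genes called. With RIC on chow 0 to 1 member fell among 13 to 184 genes called. The interaction had 0 to 1 higher member, 0 to 1 lower member and 438 to 1042 genes called. Members above the family numbered 16 to 25 with the diet in sham mice, 13 to 24 in RIC mice, 0 to 9 with RIC on CDAHFD (0 to 7 below) and 0 to 3 in the interaction. The RIC difference on CDAHFD ranged from -0.024 to 0.058 for Rpl3, -0.023 to 0.042 for Rpl5, -0.048 to 0.042 for Rplp0, -0.029 to 0.087 for Rps3a3 and -0.0020 to 0.085 for Rps4x, and on chow from -0.073 to 0.29 for Rpl41. Shares of paralogs, in percentage points, changed sign as follows. With RIC on CDAHFD they moved by -0.608 to 2.70 for Rps27l, -1.53 to 0.921 for Rpl22l1, -1.37 to 0.502 for Rpl7l1 and -5.23 to 0.930 for Rpl36al. With the diet in sham mice they moved by -1.85 to 0.0269 for Rpl7l1 and -0.694 to 2.29 for Rpl36al, in RIC mice by -0.278 to 0.568 for Rps4l and -5.60 to 0.568 for Rpl36al, and with RIC on chow by -0.467 to 0.744 for Rpl7l1.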
